A study of Homo sapiens with 8 samples.

Results

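DNA replication genes were followed by Ribo-seq, which counts the short pieces of mRNA that ribosomes shield from nuclease. The set holds 56 genes chosen by their function in origin licensing, the helicase, the polymerases, the sliding clamp, the joining of lagging-strand pieces, nucleotide supply and fork stability. It was drawn up with earlier results of these data known. Each gene matched exactly 1 of the 20165 merged gene regions in the count files, of which 19612 carried a gene symbol, and all 56 passed the filter on low counts in both comparisons. OVCAR3, an established human ovarian cancer line, was used throughout, with 2 libraries in each of 4 groups. In the siRNA experiment, cells were transfected at 30 nM either with control siRNA (siControl) or with siRNA to OARD1, which encodes the ADP-ribose hydrolase TARG1 (siTARG1). In the other experiment, doxycycline at 1 µg/ml induced both a hairpin against the endogenous RACK1 and a re-expressed RACK1. That RACK1 was wild type (RACK1-WT) or carried mutations at the acceptor sites of mono-ADP-ribosylation (RACK1-Mut), so knockdown and doxycycline were common to both groups. Cells were harvested at 48 h. The study's methods describe its genomic experiments as repeated on independent biological samples, and the labels do not say what each library of a pair came from.

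Replication begins when the origin recognition complex, CDC6 and CDT1 load a ring of MCM2 to MCM7 onto DNA. CDC45 and the GINS complex turn that ring into an active helicase, polymerase alpha-primase lays primers, and polymerases epsilon and delta extend them while held by the PCNA clamp. Many of these genes are transcribed as cells enter S phase, under transcription factors of the E2F family.

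The libraries held 3100947 to 6604190 footprints on coding sequences, and single members held between 34 and 3020 in a library. OARD1 checked the siRNA labels. Its normalized counts, scaled by median-of-ratios size factors within a comparison, were 121 and 69.1 in siControl and 5.83 and 6.75 in siTARG1. RACK1 counted 23334 and 23594 in RACK1-WT and 17745 and 17274 in RACK1-Mut, where endogenous and re-expressed coding sequences cannot be told apart. RACK1 was itself called lower in RACK1-Mut (log2 fold change -0.42, SE 0.06, DESeq2 adjusted p = 1.34e-08). The mutation and the lower RACK1 footprint level therefore cannot be told apart in that comparison. All 10 ovarian carcinoma markers listed were measured, among them PAX8, a Müllerian lineage factor, at 1431 and 1365 normalized counts in siControl. Of these 10, CDH1 and KRT7 rose in siTARG1, by 1.64 and 0.47 on the log2 scale, and KRT8, KRT18, KRT19 and WT1 fell by 1.03, 1.24, 0.31 and 1.15 (DESeq2 adjusted p from 1.55e-72 to 0.0177). The summed level of the 10 went from 11906 and 11514 CPM (counts scaled to a library total of 1000000 coding footprints) in siControl to 7726 and 8909 in siTARG1, and the part of these shifts in the results was not tested. Of 6 markers each of fibroblasts, leukocytes and endothelial cells, 4, 1 and 2 passed the filter in the siRNA comparison. Their sums in those libraries were 26.1 to 35.2, 5.41 to 12.4 and 0.954 to 6.18 CPM. RNA-seq was not analysed here, so every value is a footprint abundance and not a translation efficiency.

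Some promoter words were more frequent among these genes than among all tested genes, though not shared by all of them. Promoter windows of 300 bases from RefSeq (GRCh38.p14) were found for 49 of the 56 genes. Each was searched on both strands for the E2F words TTTCCCGC, TTTCGCGC, TTTGCCGC and TTTGGCGC. A match stood in 20 of the 49 (40.8%), against 5.4% of 9436 promoters of tested genes and 3.3% of all 27305. The CCAAT word was in 57.1% of the members' promoters and in 37% of those of tested genes. A match is a description of the letters and not a bound site. The windows below belong to the members that rose in siTARG1 and held a match, with the matched letters in capitals and the position of each window in GRCh38.p14.
MCM3 (chr6:52284898-52284927, minus strand): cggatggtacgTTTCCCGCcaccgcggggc
MCM3 (chr6:52284728-52284757, minus strand): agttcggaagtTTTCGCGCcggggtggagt
POLE (chr12:132687342-132687371, minus strand): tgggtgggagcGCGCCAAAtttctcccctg
PCNA (chr20:5126663-5126692, minus strand): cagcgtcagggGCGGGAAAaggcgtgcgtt
LIG1 (chr19:48170440-48170469, minus strand): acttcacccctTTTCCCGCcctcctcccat
CLSPN (chr1:35769965-35769994, minus strand): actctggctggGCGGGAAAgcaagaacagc

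In siTARG1 against siControl, 11 members rose and 3 fell. MCM3, a subunit of the helicase ring, and WDHD1, which tethers polymerase alpha to the helicase, both rose more than any other called member. RPA2, a subunit of the single-strand binding protein RPA, fell most. Calls were made with DESeq2 at a Benjamini-Hochberg adjusted p under 0.05 over all 12056 regions tested. The 14 called members are 25% of the set, where 16.4% of all regions were called. By direction, 19.6% of members rose against 7.18% of all regions, and 5.36% of members fell against 9.19%. The set was chosen with earlier results of these data known, so these shares are a description and no independent evidence. The median log2 fold change was 0.19 over the members and 0.003 over all regions. Without siControl replicate 2 the members' median was 0.12. Both siTARG1 libraries lay above both siControl libraries for 28 members (31.2% of all regions did so) and below them for 10 (31.4% of all regions). Leaving out any 1 of the 4 libraries left 4 members called, MCM3, WDHD1, RPA2 and RRM2.

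**Figure D1:**
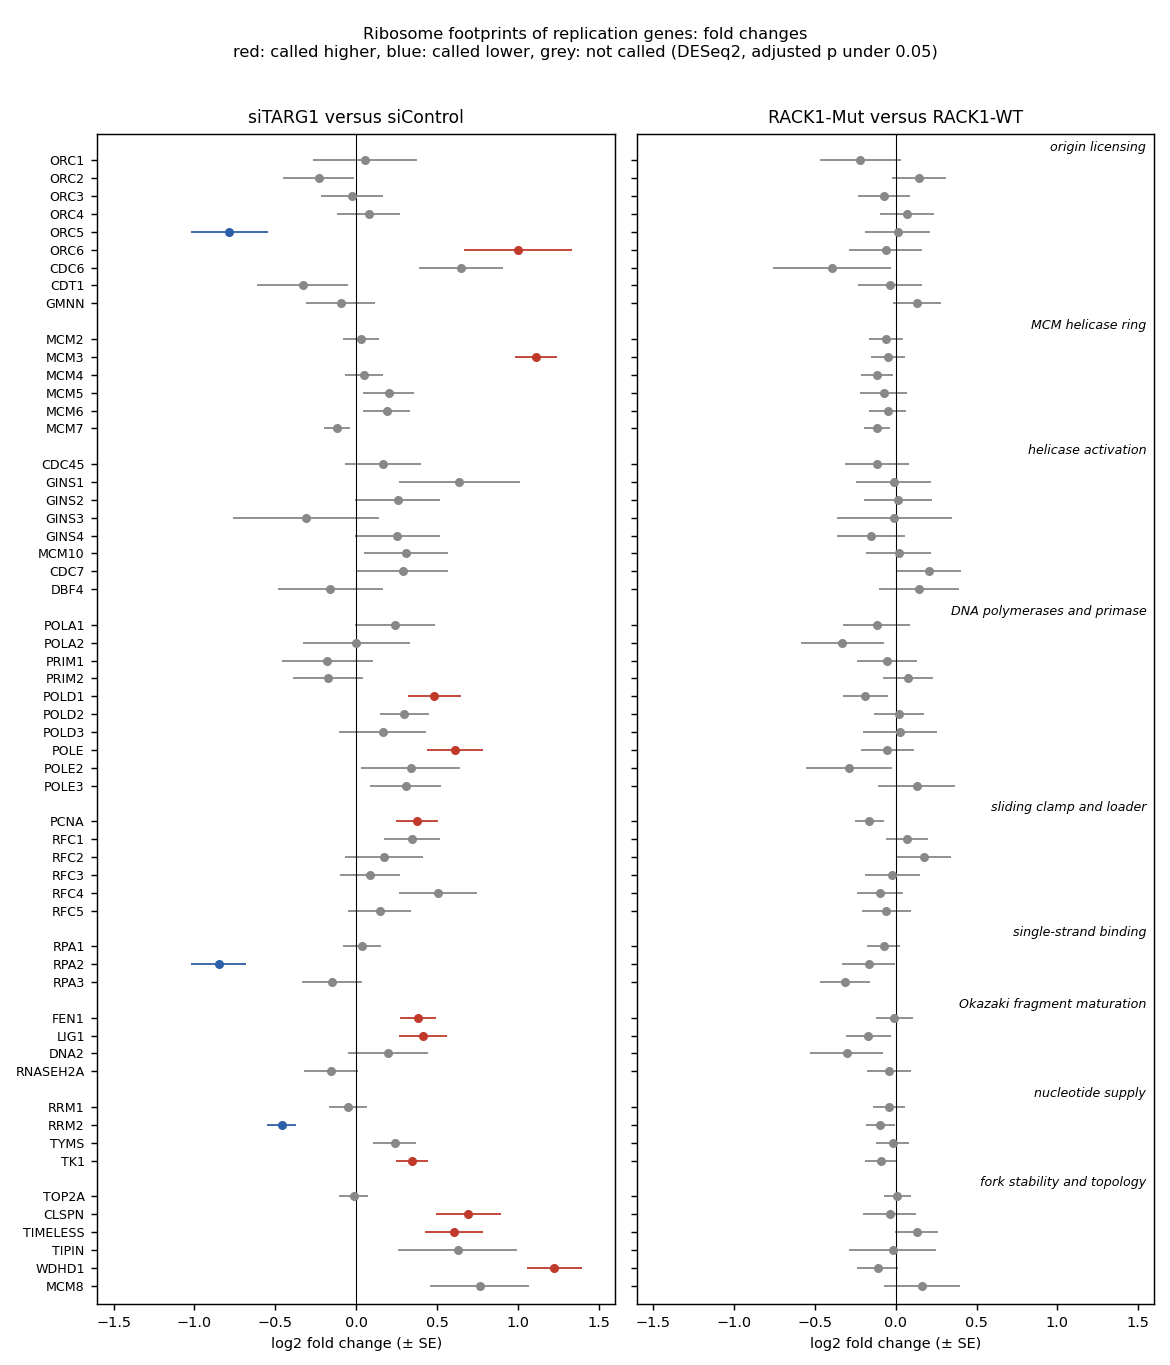
Each point is the log2 fold change of 1 of the 56 genes with its standard error, for siTARG1 over siControl on the left and RACK1-Mut over RACK1-WT on the right, grouped by role. The 11 red points (called higher) and 3 blue points (called lower) are all in the left panel, and every point of the right panel is grey.

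In origin licensing, 2 of 9 genes changed and they went opposite ways. ORC6 counted 67.7 and 40.5 in siControl and 121 and 97.8 in siTARG1, a log2 fold change of 1.00 (SE 0.34, DESeq2 adjusted p = 0.0212). Its siControl libraries differed from each other, and the groups did not overlap. ORC5, like ORC6 a subunit of the origin recognition complex, counted 174 and 179 in siControl and 98.2 and 107 in siTARG1, a log2 fold change of -0.79 (SE 0.24, DESeq2 adjusted p = 0.00912). ORC3, with the most normalized counts of the role, counted 229 and 232 against 207 and 247, and its groups overlapped. CDC6, the loader that joins the origin complex, stayed just outside the threshold, at 95.8 and 94.2 against 133 and 165 (DESeq2 adjusted p = 0.0675).

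In the MCM ring, MCM3 alone was called among 6 subunits. It counted 628 and 467 in siControl and 1183 and 1195 in siTARG1. The log2 fold change was 1.11 (SE 0.13, DESeq2 adjusted p = 1.11e-15), which is 2.16 times the control. The other subunits, which sit in the same hexamer, had log2 fold changes from -0.12 for MCM7 to 0.20 for MCM5. MCM7, with the most normalized counts of them, counted 2367 and 2212 in siControl and 2139 and 2079 in siTARG1. None of the 8 helicase activation genes was called, and their median log2 fold change was 0.26. CDC45, with the most normalized counts of these, counted 147 and 142 against 183 and 139.

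Of 10 polymerase and primase genes, the catalytic subunits of the leading-strand and lagging-strand polymerases rose. POLE, of polymerase epsilon, counted 236 and 210 in siControl and 345 and 336 in siTARG1, a log2 fold change of 0.61 (SE 0.17, DESeq2 adjusted p = 0.00458). POLD1, of polymerase delta, counted 339 and 268 against 424 and 430, a log2 fold change of 0.48 (SE 0.16, DESeq2 adjusted p = 0.0215). The region of POLD1 also joins SPIB, a lymphoid transcription factor, so its counts are uncertain. POLD2, the accessory subunit with most counts in the role, stood at 322 and 348 against 410 and 410, with an adjusted p of 0.181 by DESeq2.

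Of the clamp and the 5 loader subunits, PCNA alone was called. PCNA, the ring that holds polymerases on DNA, counted 505 and 600 in siControl and 729 and 698 in siTARG1. Its log2 fold change was 0.37 (SE 0.13, DESeq2 adjusted p = 0.0243). Among genes that finish lagging-strand pieces, FEN1, the flap nuclease, counted 711 and 713 against 951 and 904. Its log2 fold change was 0.38 (SE 0.11, DESeq2 adjusted p = 0.00452). LIG1, the ligase that seals the pieces, counted 416 and 358 against 554 and 477, a log2 fold change of 0.41 (SE 0.15, DESeq2 adjusted p = 0.0346).

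Of the 3 subunits of RPA, which coats single-stranded DNA, RPA2 alone was called. RPA2 counted 378 and 380 in siControl and 221 and 199 in siTARG1, a log2 fold change of -0.85 (SE 0.17, DESeq2 adjusted p = 1.39e-05). RPA1, the large subunit, counted 724 and 678 against 743 and 693, and its groups overlapped. RPA3, the small subunit, counted 252 and 285 against 266 and 216, with overlap as well.

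Nucleotide supply also held a call in each direction. RRM2, the small subunit of ribonucleotide reductase that is made in S phase, counted 1459 and 1454 in siControl and 1049 and 1067 in siTARG1. That is a log2 fold change of -0.46 (SE 0.09, DESeq2 adjusted p = 1.31e-05). RRM1, its partner subunit, had a log2 fold change of -0.05 and overlapping groups. TK1, the thymidine kinase of the salvage route, counted 947 and 951 against 1228 and 1183, a log2 fold change of 0.35 (SE 0.10, DESeq2 adjusted p = 0.00419).

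Of all roles, fork stability and topology had the highest median log2 fold change, 0.66 over 6 genes. WDHD1 counted 195 and 170 in siControl and 436 and 422 in siTARG1, a log2 fold change of 1.23 (SE 0.17, DESeq2 adjusted p = 5.10e-11). CLSPN, the claspin adaptor of the replication checkpoint, counted 169 and 150 against 242 and 276, a log2 fold change of 0.69 (SE 0.20, DESeq2 adjusted p = 0.00582). TIMELESS, of the fork protection complex, counted 222 and 193 against 307 and 327, a log2 fold change of 0.60 (SE 0.18, DESeq2 adjusted p = 0.00767). MCM8, a helicase of recombination, stood just outside the threshold (DESeq2 adjusted p = 0.0644). TOP2A, the topoisomerase with the second most counts of the set, stood at 2049 and 1788 against 1939 and 1858, with overlap.

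Together, the 56 genes took 0.533% and 0.514% of coding footprints in siControl and 0.618% and 0.595% in siTARG1. The means were 0.524% ± 0.0138 and 0.606% ± 0.0168 (SD, 2 libraries each). A two-sided exact permutation test gave p = 0.33, the smallest that 2 against 2 libraries can give.

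Genes near the set in function did not all move with it. Of 50 other replication genes, 49 were tested, 3 rose and 3 fell, and their median log2 fold change was 0.03. CHAF1A, a histone chaperone of the fork, was among the risers, with a log2 fold change of 0.80 (SE 0.27, DESeq2 adjusted p = 0.0201). CHTF8, of an alternative clamp loader, was among those that fell, with a log2 fold change of -1.39 (SE 0.31, DESeq2 adjusted p = 0.000166). Of 22 genes of the G2 and M phases, 10 fell and 0 rose, with a median log2 fold change of -0.25. They included MKI67, the proliferation antigen, at -0.74 (SE 0.12, DESeq2 adjusted p = 2.15e-08), and ANLN, a cytokinesis scaffold, at -0.86 (SE 0.14, DESeq2 adjusted p = 2.96e-08). Among 13 genes of the E2F and RB family, E2F3 rose (log2 fold change 0.75, DESeq2 adjusted p = 0.00344), and both dimer partners TFDP1 and TFDP2 fell, by 0.56 and 0.65 on the log2 scale. Members with an E2F word in the promoter had a median log2 fold change of 0.25 (20 genes, 5 rose), and those with a promoter but no such word had 0.17 (29 genes, 6 rose and 2 fell).

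A pair of short words in the 3′ UTRs was also read, because earlier results of these data had linked them to the siRNA comparison. A gene was said to carry a word if its 3′ UTR held either 7-letter part of TGAATATA or of TGAACATA. Over all tested genes with a 3′ UTR, TGAATATA parts were in 48.9% of those that rose and 25.9% of all. TGAACATA parts were in 38.3% of those that fell and 19.4% of all. Among the 42 members not called, 10 carried the first word and 5 the other. Of the 11 members that rose, 4 carried the first word (MCM3, WDHD1, ORC6 and TIMELESS). Of the 3 that fell, RPA2 alone carried the other. The windows below are from these genes on GRCh37, with the matched letters in capitals.
MCM3 (chr6:52128881-52128909, minus strand): accagttaaggTGAATATgtattgtatca
MCM3 (chr6:52128841-52128869, minus strand): caatatccagaTGAATATccgagatgttg
WDHD1 (chr14:55408140-55408169, minus strand): ttactcatcttTGAATATAgactcgagtct
ORC6 (chr16:46732171-46732199, plus strand): tgtcttattcaGAATATAaaattcagtct
TIMELESS (chr12:56810962-56810990, minus strand): agatagggttgGAATATAgtactctagat
RPA2 (chr1:28218143-28218171, minus strand): gtgtgtttctgTGAACATgaagttctgcg

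The words were no more frequent in the set than among all tested genes, at 25% for the first and 10.7% for the other. Since the words were taken up from the same libraries, the siTARG1 medians that follow are a description and no independent evidence. The median 3′ UTR length was 1837 bases in the genes that rose, 1346 in all tested genes and 809 in the members that rose. The 14 members with the first word had a median log2 fold change of 0.62 in siTARG1, against 0.17 over the 42 without it. In RACK1-Mut against RACK1-WT the same 14 and 42 members had medians of -0.01 and -0.06. The 38 members with neither word had a median of 0.18, with 7 that rose and 2 that fell. The part of these words in the result was not tested.

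RACK1-Mut against RACK1-WT gave no call among the members. DESeq2 called 0 of 56, where 10 of 12520 regions (0.0799%) were called, edgeR also called 0, and 1 member had an unadjusted p under 0.05, against 1.64% of all regions. The median log2 fold change was -0.05 over the members and -0.002 over all regions. Members lay below RACK1-WT in both RACK1-Mut libraries in 18 cases (18.9% of all regions) and above it in 6 (18.7%). RPA3 had the smallest unadjusted p. It counted 479 and 399 in RACK1-WT and 313 and 395 in RACK1-Mut, a log2 fold change of -0.31 (SE 0.16, DESeq2 adjusted p = 1.00). PCNA counted 1285 and 1299 against 1164 and 1144, a log2 fold change of -0.16 (SE 0.09). MCM7 counted 1991 and 2048 against 1805 and 1925, a log2 fold change of -0.12 (SE 0.08). The members took 0.512% ± 0.00454 of coding footprints in RACK1-WT and 0.500% ± 0.00845 in RACK1-Mut (SD, 2 libraries each; two-sided exact permutation test, p = 0.33).

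The difference between the comparisons was tested as an interaction over all 8 libraries. DESeq2 called it for 14 members, or 25%, against 12.3% of 12955 regions. These shares, too, only describe a set chosen with earlier results known. The siTARG1 effect was the higher for 11 of the 14 members and the lower for ORC5, RPA2 and RRM2. It was greatest for WDHD1, at 1.34 on the log2 scale (SE 0.19, DESeq2 adjusted p = 1.50e-10), and MCM3, at 1.16 (SE 0.16, DESeq2 adjusted p = 4.17e-11). These are not the same 14 members as in siTARG1 against siControl. TIMELESS, called there, was not called for the difference (DESeq2 adjusted p = 0.0859). CDC6, not called there, was called for the difference, at 1.05 (SE 0.34, DESeq2 adjusted p = 0.0190). The RACK1-WT libraries of CDC6, at 230 and 150 normalized counts, lay further apart than its siControl pair.

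Set side by side as densities, in CPM per kilobase of coding sequence, the called members fell into different patterns over the 4 groups. For MCM3 the siTARG1 libraries stood apart, at 139 and 139, while siControl held 70.0 and 52.1, RACK1-WT 66.9 and 71.2, and RACK1-Mut 68.2 and 67.7. For RPA2 the siControl libraries stood apart, at 126 and 127, while siTARG1 held 77.5 and 69.2 and the RACK1 libraries 58.9 to 68.7. TIMELESS had the siControl libraries lowest, at 16.6 and 14.4, with the other libraries between 22.3 and 26.1. The siControl libraries lay outside all other libraries for 8 of the 14 called members (57.1%, against 58.1% of all called regions), and the siTARG1 libraries for 10 (71.4%, against 67.7%). The RACK1 libraries are of another experiment, so experiment and group cannot be told apart in these levels.

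**Figure D2:**
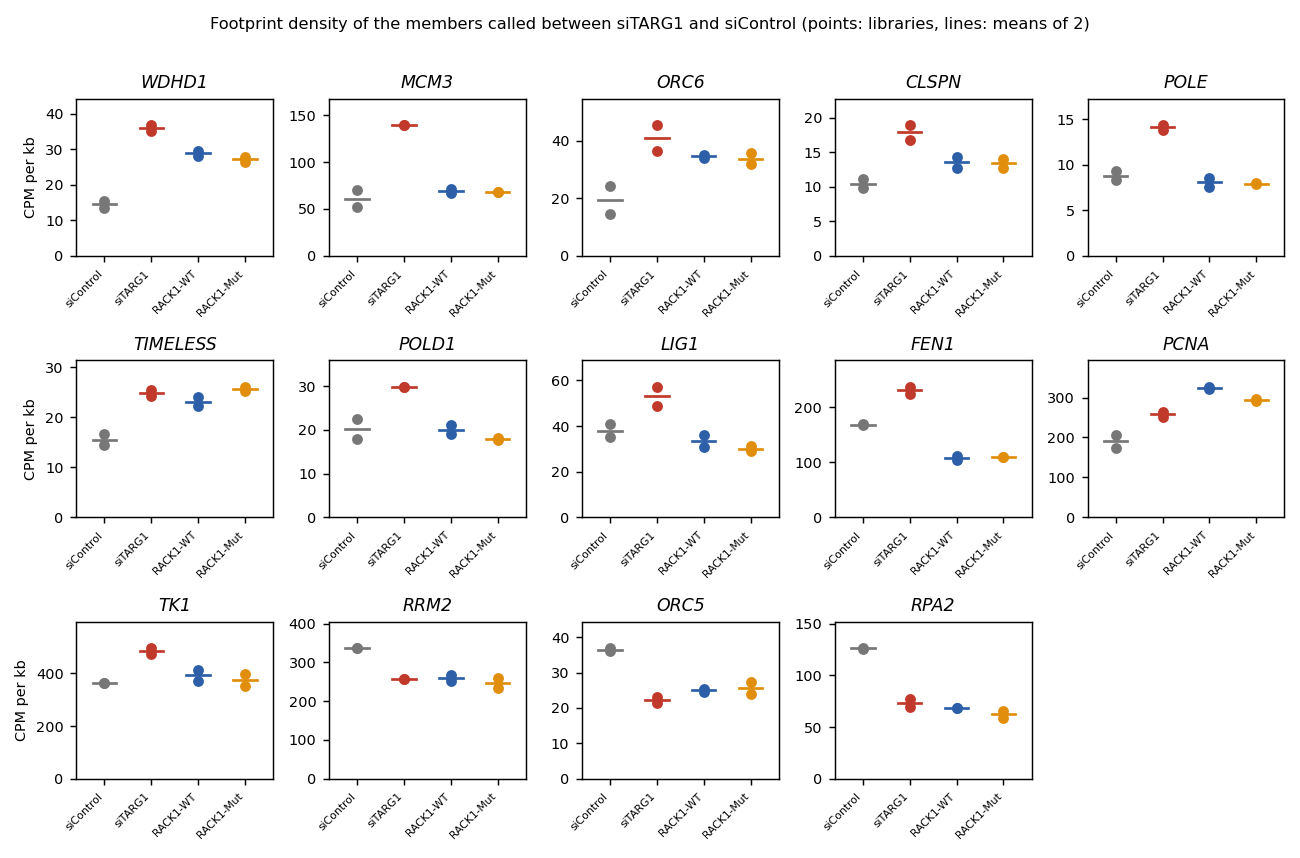
Each panel shows 1 of the 14 called members, with footprint density (CPM per kilobase) in each of the 8 libraries as points and group means as lines, on axes from 0. MCM3 and POLE are set apart in siTARG1, and RPA2, RRM2 and ORC5 are highest in siControl.

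Densities also allow subunits of 1 complex to be compared. Over the members, mean density ran from 7.99 for POLA1 to 405 for TK1, with a median of 38.3, against 16.8 over 12722 tested regions. The highest were TK1, RRM2 at 275 and PCNA at 267, and the lowest were POLA1, ORC1 at 8.57 and POLE at 9.72. In the MCM ring, where subunits are present once each, MCM7 was the highest in all 8 libraries and MCM5 the lowest in all 8. Their ratio ranged from 5.13 to 7.85 over the libraries (median 5.77). Without MCM7 the range of the ring was 2.03 to 3.15. The origin recognition complex spanned a median ratio of 5.34, with ORC1 lowest in all 8 libraries. Without ORC1 the median was 1.77. Polymerase epsilon spanned a median ratio of 8.23 over 3 subunits, between the small histone-fold subunit POLE3 and the catalytic subunit POLE. POLE4 and POLD4 are not in the set, so polymerases epsilon and delta were compared without them. On coding sequences TIMELESS and its partner TIPIN had ratios of 1.13 to 1.47, the lowest median of the 11 complexes. The ratio is of the highest to the lowest subunit, so it cannot shrink as subunits are added, and this complex has 2. The other complexes of 2 subunits, ribonucleotide reductase and CDC7 with DBF4, had medians of 3.19 and 1.89. Polymerase delta without POLD2, its highest subunit, had a lower median than TIMELESS with TIPIN. That ratio sets POLD1 against POLD3, and the region of POLD1 also joins SPIB. Its densities were divided by the 4055 coding bases of the joined region, so the ratios of polymerase delta are uncertain. Counted over whole exons, the mean ratio of polymerase epsilon was 2.13 against 8.54 on coding sequences, that of polymerase delta was 5.32 against 2.87, that of ribonucleotide reductase was 1.49 against 3.29 and that of RPA was 1.46 against 2.77. TIMELESS with TIPIN stood at 1.72 over whole exons, above ribonucleotide reductase and RPA. Whole-exon densities divide by exon length, which includes UTRs, where few of the members' footprints lay. POLE3 has 444 bases of coding sequence and 1576 of 3′ UTR, and POLE has 6861 and 935.

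**Figure D3:**
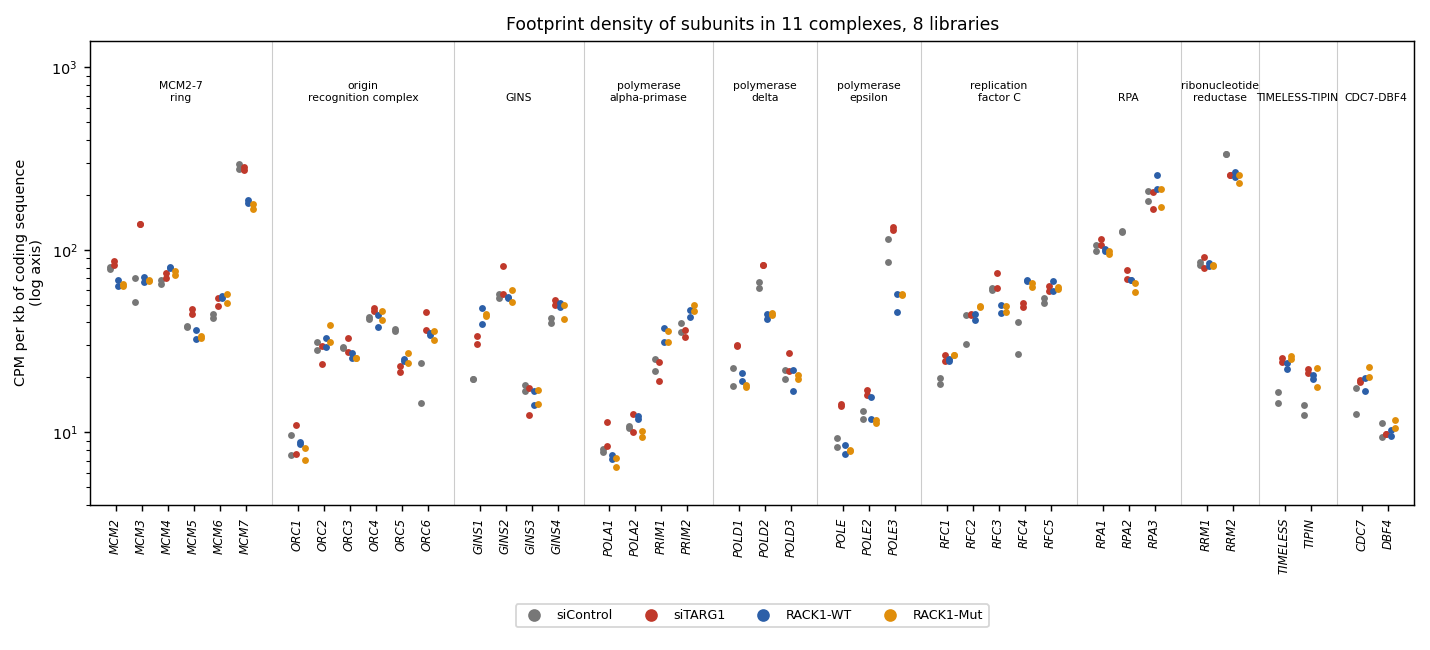
Points are footprint densities per library for the subunits of 11 complexes on a log axis, in CPM per kilobase of coding sequence, coloured by group. MCM7 lies above the other ring subunits in all 8 libraries, and TIMELESS and TIPIN lie close together.

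Few footprints of these genes lay outside coding sequences. In siControl, 1.71% and 1.77% of the members' footprints were in 5′ UTRs, and in siTARG1 1.41% and 1.36%. All regions together held 3.97% and 4.33% in siControl and 4.02% and 4.34% in siTARG1. The groups did not overlap for the members, and a two-sided exact permutation test gave p = 0.33, the smallest possible. In RACK1-WT and RACK1-Mut the members' shares overlapped, at 1.33% and 1.58% against 1.41% and 1.87%. Over 8 libraries the share passed 10% in 3 members, MCM8 at 14.4%, DBF4, the activator of the CDC7 kinase, at 13.4%, and POLD2 at 12.3%, and the median over members was 0.944%. The 3′ UTR share of the members lay between 0.126% and 0.232% in all libraries.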

How the data were processed

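Ribosome footprints were measured in 8 libraries of OVCAR3 cells, 2 in each of 4 groups taken from the sample titles. Per the authors' methods, linkers, molecular identifiers and barcodes were removed, rRNA reads were discarded with Bowtie 1.1.2, and the rest were aligned to transcripts with TopHat2 2.1.1, many hits per read being allowed. The identifiers were meant for removing duplicates, but whether that step was run before counting is not given in the sources used here. The deposited values are whole-number counts that the authors made with Plastid on hg19 with GENCODE 24. The file headers record reads of 26 to 36 nt with an offset of 14 nt at the 5′ end, but an offset at the 3′ end is described in the methods. The other deposited values used were the authors' exon and coding lengths.

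Regions were named through GENCODE 44 lifted to GRCh37 (97.3% matched; 452 join several symbols). Members, gene lists and the 3′ UTR words were chosen with earlier results of these data known. Coding counts were tested with DESeq2 1.42.0 (Wald test, R 4.3.3) on regions whose counts in the fitted libraries summed to 10 or more, adjusted over all regions. Alternatives were edgeR 4.0.16, TMM factors, other filters, exon counts, all 8 libraries, a replicate block and each library left out. The named genes are every called member and the member with most counts in each role for siTARG1, every called member plus the 3 smallest unadjusted p for RACK1, every called member for the difference, and the highest and lowest densities. The fits were tested on simulated data. SD values cover the spread of 2 libraries only. Standard errors of fold changes are those of the DESeq2 fit, which shares information on spread across regions, and they rest on 2 libraries per group.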

Additional observations from a re-analysis of the deposited data

How the results depend on the processing

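For siTARG1 against siControl, the 14 members called became 19 with edgeR, 5 with the replicate block (MCM3, WDHD1, POLE, RPA2 and RRM2) and 4 without any 1 library. Leaving out a library assumes that the lone one varies like the others. Whether equal replicate numbers mark paired samples could not be settled. Deviations from the group means correlated at only 0.0306 and 0.0829 in the siRNA and RACK1 experiments. In the siRNA experiment, however, the 5′ UTR share of all regions followed the number. It was 3.97% and 4.02% in the siControl and siTARG1 libraries of replicate 1, and 4.33% and 4.34% in those of replicate 2. The difference between the comparisons was called for 3 members with the replicate block (MCM3, WDHD1 and PCNA), against 14 without it. The members' median log2 fold change ranged from 0.12 to 0.27 without 1 library in the siRNA comparison. In the RACK1 comparison no member was called under any alternative, and the median was -0.0456 with edgeR, -0.0459 with TMM factors, -0.0502 with 10 counts in every library, -0.0539 with exon counts, -0.0522 with all 8 libraries, and from -0.0504 to -0.0429 without 1 library. Some uncalled genes changed sign without 1 library: log2 fold changes ran from -0.146 to 0.104 for ORC3, from -0.0487 to 0.349 for CDC45, from -0.0172 to 0.0896 for RPA1 and from -0.113 to 0.0791 for TOP2A. The difference in 3′ UTR share between RACK1-Mut and RACK1-WT was -0.0378 percentage points as a median over members, against -0.0276. Mean ratios within complexes over whole exons were 7.04 for the MCM ring, 3.42 for the origin recognition complex, 5.32 for polymerase delta, 2.13 for polymerase epsilon, 2.40 for replication factor C, 1.46 for RPA, 1.49 for ribonucleotide reductase and 1.72 for TIMELESS with TIPIN. The ratio of polymerase delta rests on the joined region of POLD1 and SPIB and is uncertain. Whole-exon ratios divide by exon lengths that include UTRs, so they also carry differences in UTR length. How much of the shift in these ratios comes from that was not tested, and the cause of the other shifts was not tested. Depth limits the members with fewest counts, such as GINS3 and ORC6.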
